A study of Mus musculus with 4 samples.

Results

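Epi-CE, caudal epiblast-like cells made from mouse epiblast stem cells (EpiSCs), were compared gene by gene with ES-NMP, neuromesodermal progenitor (NMP) cells made from mouse embryonic stem cells (ESCs). The cells were those that the deposited cell table marks TRUE, 5502 of the 10579 barcodes of the series, of which 2386 came from the Epi-CE library and 3116 from the ES-NMP library. Within ES-NMP, 729 cells with 3 or more unique molecular identifiers (UMIs) of Zfp42 were set apart. They are called Zfp42-high here, and the other 2387 ES-NMP cells Zfp42-low. Epi-CE cells came from EpiSCs that had spent at least 4 passages on fibronectin in N2B27 with 12 ng/ml FGF2 and 25 ng/ml activin A. Activin was then taken away, the dose of FGF2 went up to 20 ng/ml, and CHIR99021, which inhibits GSK3 and so turns on WNT signalling, was added at 3 µM on day 3. ES-NMP cells came from ESCs on gelatine that had 2 days of N2B27 alone and then 24 h of 3 µM CHIR99021, with no added FGF2 or activin. Both libraries carry the label E14Tg2a, a male ESC line, and each is a single 10x Chromium library with 8700 cells loaded. Every difference below therefore compares 1 library with 1 library, so no test was possible and protocol, culture history and library cannot be told apart.

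At the tail end of the embryo NMPs supply both the spinal cord and the paraxial mesoderm. They are usually recognised by the joint presence of T (Brachyury), a primitive streak and mesoderm factor, and Sox2, which acts in pluripotent and in neural cells, and they lie next to the node, which gives rise to the notochord. ESCs resemble the naive epiblast before implantation and EpiSCs the primed epiblast after it. Zfp42, which encodes REX1, is active in the naive state and silent in primed cells. Hox genes switch on in the caudal epiblast in the order of their paralogue groups, so that higher groups mark more posterior or later cells.

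Epi-CE held 58663735 UMIs, with a median of 22613.5 per cell, Zfp42-high cells held 17647590 with a median of 23201, and Zfp42-low cells held 53915439 with a median of 21721. Levels are UMIs summed over the cells of a group and divided by the group's total, as CPM (UMIs for each 1000000 of the group), and all intervals are 95% intervals that cover counting error only. A group's floor of 3 UMIs lay at 0.0511 CPM in Epi-CE, 0.170 CPM in Zfp42-high and 0.0556 CPM in Zfp42-low cells. Shares of cells were taken after every cell had been thinned at random to 8000 UMIs. Ribosomal protein and mitochondrial genes took 30.6% of UMIs in Epi-CE, 31.7% in Zfp42-high and 30.1% in Zfp42-low cells. The libraries shared 14 cell barcode sequences. In summed counts fewer cells of a type and less RNA per cell cannot be told apart.

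The lowest ratio among the genes that were ranked was found at a gene that bears on the line label. Hprt, the purine salvage enzyme gene on chromosome X (52988137 to 53021659, plus strand, protein-coding, build mm10), was at 0.801 CPM in Epi-CE, 231 CPM in Zfp42-high and 195 CPM in Zfp42-low cells. It was 243-fold lower (183 to 331) in Epi-CE than in Zfp42-low cells, and an Hprt UMI was found in 0.712% of Epi-CE, 82.4% of Zfp42-high and 76.0% of Zfp42-low cells. E14Tg2a was isolated as a line deficient in Hprt, so the level in Epi-CE goes with its label and the level in ES-NMP goes against it. In the remaining libraries of the series Hprt was at 0.943 CPM in Epi-NMP, which was made from Epi-CE cells, and at 138 CPM in the reporter-sorted library Epi-CE-T. Kdm5d, a histone demethylase gene of the Y chromosome, split the libraries in the same way, with 0 UMIs in Epi-CE and 0 in Epi-NMP, against 46 in Epi-CE-T and 27 in ES-NMP. Zfy1, a zinc finger gene of the Y chromosome, had no UMI in Epi-CE and was at 2.78 CPM in Zfp42-high and 0.612 CPM in Zfp42-low cells. The Y-linked Ddx3y, Eif2s3y and Uty were all within 2-fold between Epi-CE and Zfp42-low cells. ES-NMP is therefore called below by its library label, and a difference in parent line cannot be told apart from a difference in protocol in any result that follows.

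Chromosomes 8 and 11 also stood apart, across their whole gene content. Among 6508 genes at 5 to 200 CPM in all 3 groups, the median log2 ratio of Epi-CE over Zfp42-low cells was -0.03. It was -0.47 over the 372 genes of chromosome 8, of which 83.9% were below 0, and -0.25 over the 563 genes of chromosome 11, of which 70.9% were below 0. The other 18 chromosomes lay between -0.07 and 0.08. Against Zfp42-high cells the chromosome 8 median was -0.34, with the other 18 between -0.00 and 0.23, and chromosome 11 lay inside that range at 0.04. Single cells fell into separate classes by the share of the UMIs of these 6508 genes that each chromosome supplied. For chromosome 8 the median share was 5.07% in Epi-CE, 6.91% in Zfp42-high and 6.84% in Zfp42-low cells, and 1.01% of Epi-CE, 90.4% of Zfp42-high and 90.1% of Zfp42-low cells lay at or above 5.9%, the dip between the classes. Within 0.3 points of that dip lay 6.58% of Epi-CE, 4.53% of Zfp42-high and 4.11% of Zfp42-low cells. For chromosome 11 the median share was 7.80% in Epi-CE, 7.83% in Zfp42-high and 7.70% in Zfp42-low cells of the lower class, and about 11% in Epi-CE, 11.1% in Zfp42-high and 10.9% in Zfp42-low cells of the upper class. The upper class, at or above 9%, held 23.2% of Epi-CE (21.5 to 25.0), 22.9% of Zfp42-high (19.9 to 26.1) and 66.0% of Zfp42-low cells (64.0 to 67.9). Chromosome 2, taken as an ordinary chromosome, supplied a median of 7.78% in Epi-CE, 7.58% in Zfp42-high and 7.73% in Zfp42-low cells. DNA copy number was not tested. The dips were placed after the distributions had been seen, and cells under them are called chromosome 8-low and chromosome 11-low where a result is repeated in them.

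**Figure D1:**
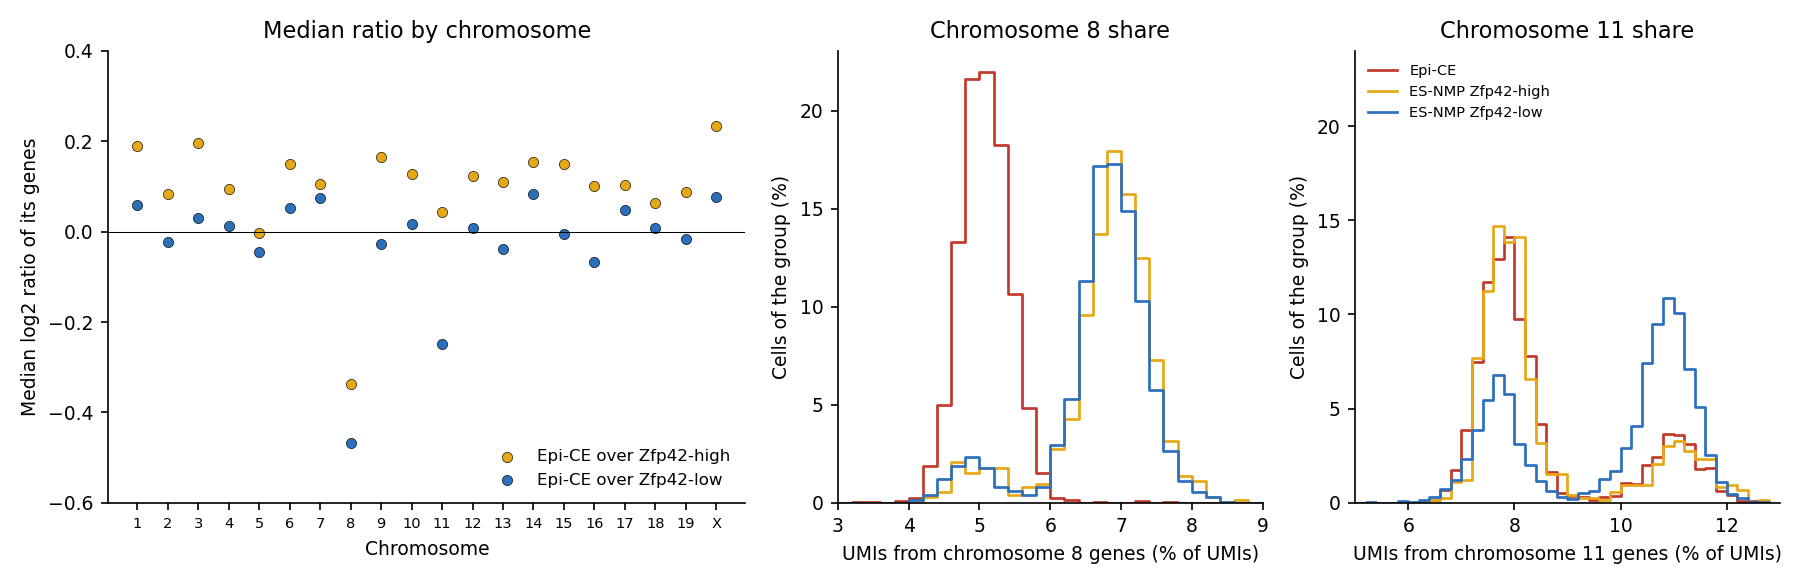
Left, median log2 ratio of the genes of each chromosome for Epi-CE over Zfp42-high and over Zfp42-low ES-NMP cells; middle and right, percent of the cells of each group by the share of the cell's UMIs, over the 6508 genes compared, that came from chromosome 8 and chromosome 11 genes. Chromosome 8 lies lowest in both comparisons at -0.34 and -0.47, nearly all Epi-CE cells sit in the lower chromosome 8 class, and Zfp42-low cells sit mostly in the upper chromosome 11 class.

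Of 673 measured chromosome 8 genes 15.0% were at least 2-fold lower in Epi-CE than in Zfp42-low cells and 3.86% at least 2-fold higher. The shares were 6.14% lower and 10.8% higher among the 11530 genes that were placed on neither chromosome. These include genes whose symbol was not matched to any chromosome. The level of Hprt did not follow these classes: it was at 181 CPM in the 237 Zfp42-low cells that were chromosome 8-low and at 197 CPM in the 2150 that were not. No Hprt UMI was found, after thinning, in 30.8% of the 237 cells and in 23.3% of the 2150, while 99.3% of chromosome 8-low Epi-CE cells had none. The 237 cells held more of some genes that were high in Epi-CE. Anxa2 was at 60.3 CPM in them against 15.2 CPM in the other Zfp42-low cells, and Gbp2 at 14.3 against 2.19 CPM. Of the 131 genes named by rule that were at least 2-fold apart between Epi-CE and Zfp42-low cells, 110 were so on the same side among chromosome 8-low cells and 115 among chromosome 11-low cells. Of all 162 genes named by rule, the ratio moved by over 1.5 times for 41 among chromosome 8-low and for 48 among chromosome 11-low cells. Some genes that were named by rule and are described below came within 2-fold or to the other side in these repeats. Among chromosome 8-low cells these were Acvr1b, Bmp2, Ccne1, Cirh1a, Cyp26a1, Dusp5, Emc8, Etv4, Krt18, Mcm5, Nip7, Pou3f1, Snai1, Sparc, Xist and Zfp703. Acvr1b, Cdx2, Etv4, Fgf3, Fgf5, Fgf15, Hes7, Hoxb1, Hoxb2, Krt18 and Notum were within 2-fold among chromosome 11-low cells. Further list members described below were repeated only in the counts of their lists, and more of them may lose their call.

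Zfp42-high cells made up 23.4% of ES-NMP cells (21.9 to 24.9) and 24.7% of its UMIs, whereas 4 of 2386 Epi-CE cells had a Zfp42 UMI and none had more than 1. The split was sharp for most cells but not for all: 1890 ES-NMP cells had no Zfp42 UMI, 358 had 1, 139 had 2, 57 had 3, 263 had 10 to 19 and 220 had 20 or more. The summed level of the naive pluripotency list without Zfp42 climbed along with the count, from 313 CPM in cells with 0 UMIs, through 864 CPM with 1, 1915 CPM with 2, 2711 CPM with 3 and 3540 CPM with 4, to 6890 CPM with 20 or more. All Epi-CE cells together had 166 CPM. The Zfp42-low group keeps the cells just under the dividing line. Both sets came from 1 library, and how much of the naive transcripts in Zfp42-low cells was free RNA in the droplets was not tested.

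**Figure D2:**
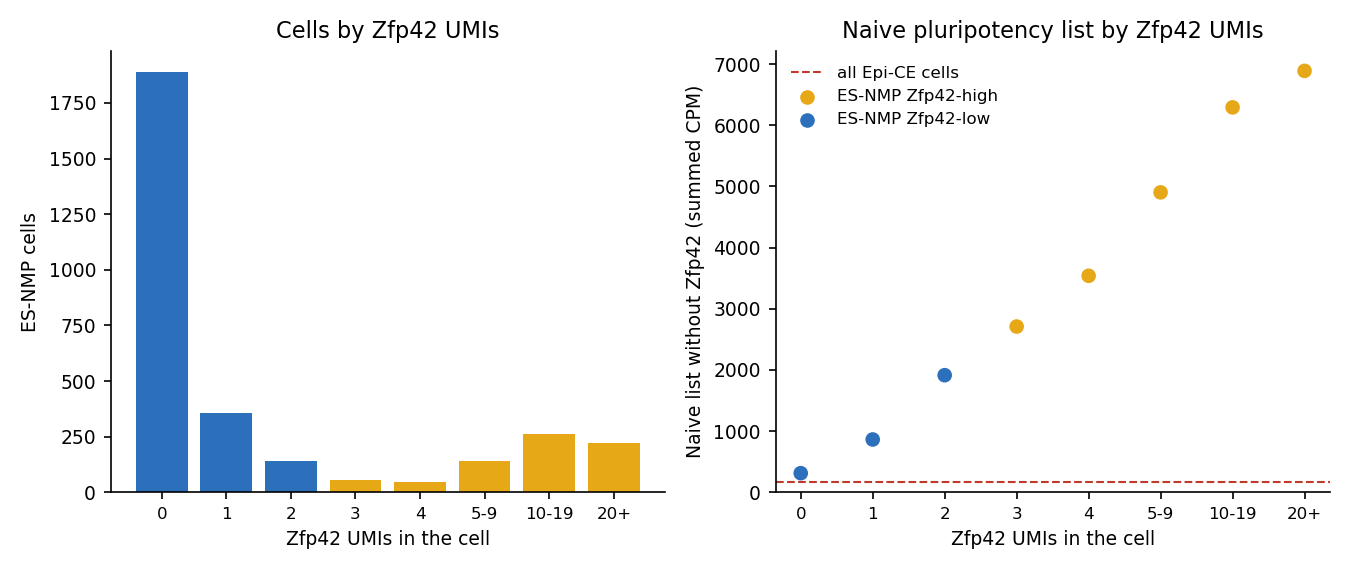
ES-NMP cells by their number of Zfp42 UMIs (left) and the summed level in CPM of the other naive pluripotency genes in each set of cells (right), with Zfp42-high and Zfp42-low sets coloured and the level over all Epi-CE cells dashed. The level climbs in steps to 6890 CPM, and cells with 2 UMIs, at 1915 CPM, lie far above the 166 CPM of Epi-CE.

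Of 12469 genes that had 50 UMIs or more in the 2 sets together, 888 (7.12%) were at least 2-fold higher and 2052 (16.5%) at least 2-fold lower in Zfp42-high than in Zfp42-low cells. TMM scaling would move all of these log2 ratios up by 0.14 and size factors by 0.15, so they are best read against the median of -0.18. Of 17 measured naive genes other than Zfp42, 15 were at least 2-fold higher. Dppa5a was at 3279 CPM in Zfp42-high cells, against 258 CPM in Zfp42-low cells, though near-identical copies make its count uncertain, and Tdh, threonine dehydrogenase, was at 682 CPM in Zfp42-high cells, against 49.5 CPM in Zfp42-low cells. Klf2, a naive-state Krüppel-like factor, was at 942 CPM in Zfp42-high cells, against 44.1 CPM in Zfp42-low cells, and Dppa3, also known as Stella, at 276 CPM in Zfp42-high cells, against 9.33 CPM in Zfp42-low cells. The exceptions were Gbx2, at 12.0 CPM in Zfp42-high cells, against 56.6 CPM in Zfp42-low cells, and Klf4, at 15.1 CPM in Zfp42-high cells, against 16.2 CPM in Zfp42-low cells. Further genes with the largest ratios were Mylpf, a myosin light chain gene, which was 51.2-fold higher (46.4 to 56.7), the germline gene Morc1 (29.2-fold higher), Hsd17b14 (28.4-fold higher), the secreted phosphoprotein gene Spp1 (22.3-fold higher) and Dnmt3l, a cofactor of de novo DNA methylation (17.3-fold higher). Of the 10 genes with the lowest ratios among those at 50 CPM or more in the higher set and with 200 UMIs or more, 4 were Hox genes. Hoxb9 was 21.5-fold lower (16.5 to 28.5) and was detected in 1.65% of Zfp42-high against 26.8% of Zfp42-low cells, and Rspo3, a WNT enhancer gene, was 16.0-fold lower. Hoxb8, Ptn, Hoxb1, Hoxb2, Fgfbp3, Crabp1, Acta2 and the antisense gene Hoxaas3 made up the rest. All 10 still had UMIs in Zfp42-high cells, and whether those were free RNA in the droplets was not tested. Hoxb1, Hoxb2, Hoxb8 and Hoxb9 lie on chromosome 11, whose median log2 ratio of Zfp42-high over Zfp42-low cells was -0.30. The other 18 chromosomes lay between -0.18 and -0.05. Within Zfp42-low cells Hoxb9 was at 23.9 CPM in the chromosome 11-low and 88.5 CPM in the upper class. Among chromosome 11-low cells 658 of 10930 genes were higher and 1383 lower in Zfp42-high cells.

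Over all genes, the Zfp42-high cells shaped which genes separated the libraries. Against Zfp42-low cells 1366 of 13250 measured genes (10.3%) were at least 2-fold higher in Epi-CE and 899 (6.78%) at least 2-fold lower, with a median log2 ratio of 0.01. Against all ES-NMP cells the counts were 1527 of 13553 (11.3%) higher and 1112 (8.2%) lower. Of the 13250 genes measured in both comparisons, leaving the Zfp42-high cells out moved 272 from higher and 174 from lower to within 2-fold, and added 126 higher and 135 lower calls. The remaining calls that were lost were those of Zfp42, which defines the split, and of genes with fewer than 50 UMIs once those cells were left out. None turned from higher to lower or back. These shares of all genes are the background against which the counts of each gene list below are read. Sox2 was 2.28-fold lower (2.16 to 2.41) in Epi-CE than in all ES-NMP cells and 1.11-fold lower (1.04 to 1.19) than in Zfp42-low cells, and 63.2% of the Sox2 UMIs of ES-NMP lay in Zfp42-high cells. Klf2 shifted further, from a log2 ratio of -3.16 against all ES-NMP cells to -0.57 against Zfp42-low cells. Nanog, Utf1, L1td1, Mybl2, Mt1, Mtf2, Etv5 and Socs2 likewise passed 2-fold against all ES-NMP cells but not against Zfp42-low cells. In the other direction Apoe, the apolipoprotein E gene, was within 2-fold of all ES-NMP cells at a log2 ratio of 0.13 and higher than Zfp42-low cells at 1.14, and Pdk1 and Upp1 behaved alike. All ratios below are against Zfp42-low cells unless another group is named.

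**Figure D3:**
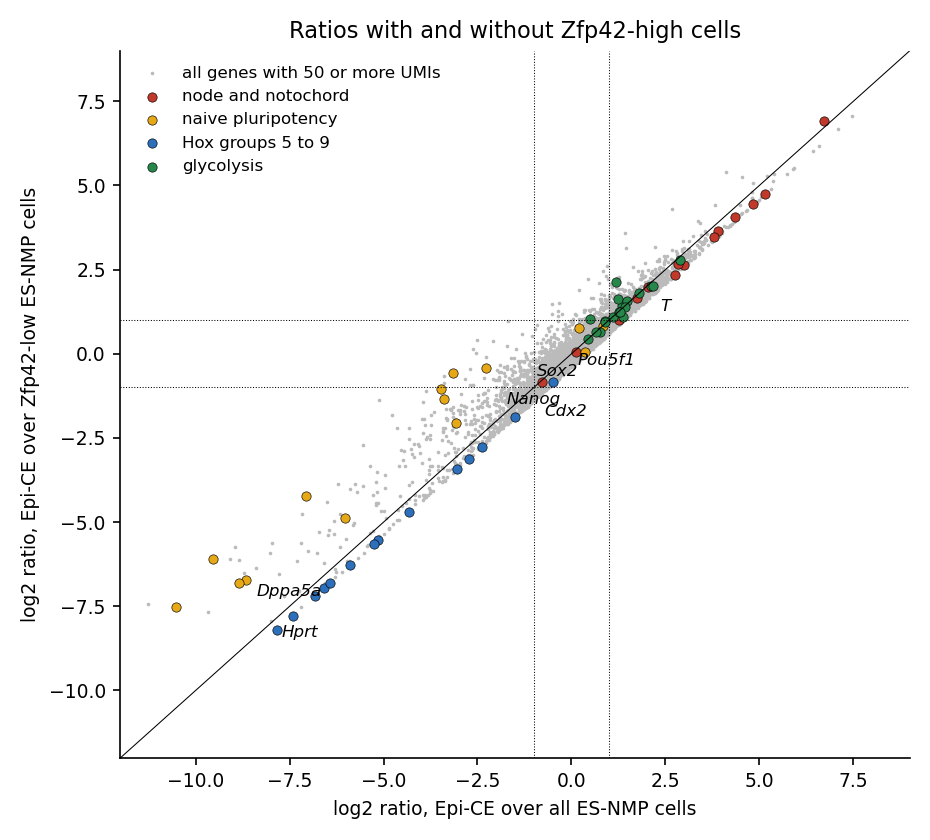
Log2 ratio of each gene for Epi-CE over all ES-NMP cells (horizontal) and over Zfp42-low ES-NMP cells (vertical), with members of 4 lists coloured, dotted lines at 2-fold and a solid line of equality. Most naive pluripotency genes lie well above the line of equality, Sox2 moves from below -1 to near 0, and node, Hox and glycolysis genes keep close to the line.

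The defining pair of NMP factors went separate ways. T (chromosome 17, 8434423 to 8442496, plus strand, protein-coding) was at 431 CPM in Epi-CE, 25.0 CPM in Zfp42-high and 128 CPM in Zfp42-low cells. That was 3.37-fold higher (3.29 to 3.47) in Epi-CE, and T was detected in 78.9% of Epi-CE, 11.1% of Zfp42-high and 40.0% of Zfp42-low cells. Sox2 (chromosome 3, 34650405 to 34652461, plus strand, protein-coding) was at 31.4 CPM in Epi-CE, 184 CPM in Zfp42-high and 35.0 CPM in Zfp42-low cells, so that Epi-CE and Zfp42-low cells lay close together and the Zfp42-high cells alone stood out. Nkx1-2, which marks the caudal epiblast, was at 182 CPM in Epi-CE, 41.1 CPM in Zfp42-high and 165 CPM in Zfp42-low cells and was detected in 61.5% of Epi-CE, 19.1% of Zfp42-high and 61.4% of Zfp42-low cells. Cdx2, the caudal homeobox factor that acts upstream of posterior Hox genes, was at 122 CPM in Epi-CE, 31.8 CPM in Zfp42-high and 314 CPM in Zfp42-low cells and was 2.58-fold lower (2.51 to 2.65) in Epi-CE. Its log2 ratio of -1.37 shrank to -0.58 among chromosome 11-low cells. Cells with both T and Sox2 made up 14.5% of Epi-CE (13.1 to 16.0), 5.35% of Zfp42-high (3.83 to 7.24) and 5.70% of Zfp42-low cells (4.80 to 6.70). In none of the groups was the pair found together more often than the product of the single shares, which was 15.0% in Epi-CE, 7.68% in Zfp42-high and 8.27% in Zfp42-low cells. T and Nkx1-2 were found together in 49.5% of Epi-CE, 6.04% of Zfp42-high and 28.7% of Zfp42-low cells. All 3 factors were found in 10.1% of Epi-CE, 2.19% of Zfp42-high and 4.23% of Zfp42-low cells.

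**Figure D4:**
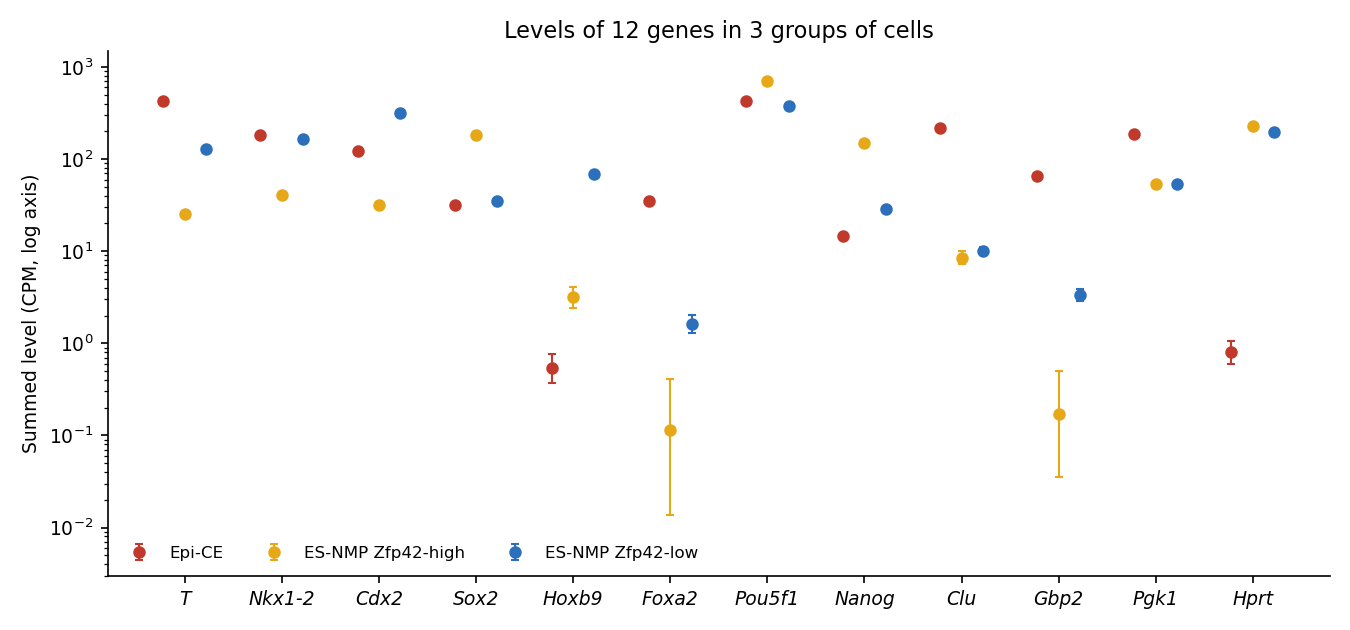
Summed level in CPM on a log axis of 12 genes in Epi-CE, Zfp42-high and Zfp42-low cells; bars are 95% Poisson intervals, counting error only. T, Clu, Gbp2, Foxa2 and Pgk1 are highest in Epi-CE, Sox2 and Nanog in Zfp42-high cells, Cdx2 and Hoxb9 in Zfp42-low cells, and Hprt is at 0.801 CPM in Epi-CE and at 231 CPM in Zfp42-high and 195 CPM in Zfp42-low cells.

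Of the 21 caudal epiblast and NMP genes 2 were at least 2-fold higher in Epi-CE and 8 at least 2-fold lower, with a median log2 ratio of -0.78. Cyp26a1, which breaks down retinoic acid, was the second higher member at 10.2 CPM in Epi-CE, 0.113 CPM in Zfp42-high and 4.82 CPM in Zfp42-low cells, and it was just past the line at 2.11-fold higher. Fgf8, the main growth factor of the caudal epiblast, was level at 95.8 CPM in Epi-CE, against 85.4 CPM in Zfp42-low cells, as was Wnt8a at 46.7 CPM in Epi-CE, against 55.0 CPM in Zfp42-low cells, and Sp5, a WNT target, was at 219.8 CPM in Epi-CE, against 144 CPM in Zfp42-low cells. The lower members included both other caudal homeobox genes: Cdx1 was 2.22-fold lower and Cdx4, without a single UMI in Epi-CE, was at least 99.4-fold lower than its 5.08 CPM in Zfp42-low cells. Hes3, a repressor of neural progenitors, was at 0.528 CPM in Epi-CE, 2.61 CPM in Zfp42-high and 47.1 CPM in Zfp42-low cells and Fgf17 at 3.22 CPM in Epi-CE, 5.89 CPM in Zfp42-high and 20.4 CPM in Zfp42-low cells. Wnt3a and Wnt5a, both below the 2-fold line, were at log2 ratios of -0.78 and -0.69. The counts for this list were 1 higher and 11 lower among chromosome 8-low cells, and 2 and 6 among chromosome 11-low cells.

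Hox genes were lower in Epi-CE nearly throughout. In paralogue groups 1 to 4, 10 of 11 measured genes were at least 2-fold lower in Epi-CE (median -1.92), and in groups 5 to 9, 13 of 14 (median -5.58). Along the groups, Hoxb1 was at 24.5 CPM in Epi-CE, against 67.6 CPM in Zfp42-low cells, Hoxb4 at 3.15 CPM in Epi-CE, against 21.4 CPM in Zfp42-low cells, Hoxb8 at 1.11 CPM in Epi-CE, against 55.1 CPM in Zfp42-low cells and Hoxb9 at 0.545 CPM in Epi-CE, against 68.1 CPM in Zfp42-low cells. Hoxb9 (chromosome 11, 96271457 to 96276595, plus strand, protein-coding) was 125-fold lower (88.3 to 183) and was detected in 0.419% of Epi-CE against 26.8% of Zfp42-low cells. Hoxc8 was 223-fold lower (113 to 517) and Hoxb6 296-fold lower (127 to 913) in Epi-CE. Hoxa5 was the only measured gene of groups 5 to 9 within 2-fold, at 2.76 CPM in Epi-CE, against 4.97 CPM in Zfp42-low cells. The HoxB cluster lies on chromosome 11. Among chromosome 11-low cells 6 genes of groups 1 to 4 and 12 of groups 5 to 9 were still at least 2-fold lower, Hoxb1 and Hoxb2 no longer were, and Hoxb9 moved from a log2 ratio of -6.96 to -5.14.

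Neural genes were lower as a group, 12 of 15 at least 2-fold and 0 higher (median -1.64). Sox1, an early neural factor, was at 0.443 CPM in Epi-CE, 0.453 CPM in Zfp42-high and 8.92 CPM in Zfp42-low cells. Hes5, a Notch effector of neural progenitors, was at 0.614 CPM in Epi-CE, 1.19 CPM in Zfp42-high and 11.6 CPM in Zfp42-low cells, Pax3 of the dorsal neural tube at 0.205 CPM in Epi-CE, 0.0567 CPM in Zfp42-high and 3.45 CPM in Zfp42-low cells, and Crabp1, a cytoplasmic retinoic acid binding protein gene, at 7.43 CPM in Epi-CE, 10.7 CPM in Zfp42-high and 146 CPM in Zfp42-low cells. Crabp1 was detected in 4.19% of Epi-CE, 7.68% of Zfp42-high and 20.0% of Zfp42-low cells. Zic2 leaned the other way at 18.2 CPM in Epi-CE, against 12.8 CPM in Zfp42-low cells. The list varied with the chromosome 11 classes: among Zfp42-low cells Crabp1 was at 42.9 CPM in the chromosome 11-low class and 193 CPM in the upper class. Within chromosome 11-low cells 5 neural members, and within chromosome 8-low cells 7, were still measured and at least 2-fold lower. These counts mix members that came within 2-fold with members that fell under 50 UMIs there. Among chromosome 11-low cells Sox1, Hes5, Pax3 and Crabp1 stood at log2 ratios of -3.38, -2.87, -2.70 and -2.77. Ptn, which encodes the growth factor pleiotrophin, was at 33.2 CPM in Epi-CE, 15.1 CPM in Zfp42-high and 267 CPM in Zfp42-low cells, and among Zfp42-low cells at 119 CPM in the chromosome 11-low and 336 CPM in the upper class.

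Paraxial and presomitic mesoderm genes were mixed, with 1 of 12 higher, 4 lower and a median of -0.19. Dll3, a Notch ligand of the presomitic mesoderm, was at 154 CPM in Epi-CE, 15.6 CPM in Zfp42-high and 66.5 CPM in Zfp42-low cells, the highest of the 12 in ratio at 2.31-fold higher. Tbx6, the presomitic T-box factor, was at 9.61 CPM in Epi-CE, against 10.4 CPM in Zfp42-low cells and Rspo3 at 77.9 CPM in Epi-CE, against 62.7 CPM in Zfp42-low cells. Hes7, the oscillating repressor of the segmentation clock, was at 13.8 CPM in Epi-CE, 2.27 CPM in Zfp42-high and 45.3 CPM in Zfp42-low cells and was 3.27-fold lower (3.02 to 3.55). Its log2 ratio of -1.71 became -0.59 among chromosome 11-low cells, and the gene lies on chromosome 11.

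The genes of node and notochord stood on the Epi-CE side, with 12 of 14 measured genes at least 2-fold higher, 0 lower and a median of 2.65. Foxa2, the forkhead factor of node, notochord and endoderm, was at 35.4 CPM in Epi-CE, 0.113 CPM in Zfp42-high and 1.63 CPM in Zfp42-low cells. Chrd and Nog, which encode the BMP antagonists chordin and noggin, were at 12.4 CPM in Epi-CE, 0.397 CPM in Zfp42-high and 0.983 CPM in Zfp42-low cells for Chrd and 18.7 CPM in Epi-CE, 0.340 CPM in Zfp42-high and 1.69 CPM in Zfp42-low cells for Nog. Shh, the signal of the notochord (chromosome 5, 28456815 to 28467256, minus strand, protein-coding), was at 4.43 CPM in Epi-CE, against 2 UMIs in Zfp42-low cells, a ratio of 119-fold higher (32.7 to 992). Foxj1, Cfap126 and Pifo, genes of motile and nodal cilia, were 16.6-fold higher, 6.39-fold higher and 3.93-fold higher. Noto, a homeobox factor of the node, was at 0.750 CPM in Epi-CE and 0.148 CPM in Zfp42-low cells. Foxa2 was detected in 19.6% of Epi-CE against 1.26% of Zfp42-low cells, and 16.9% of Epi-CE cells held both T and Foxa2, against none of the Zfp42-high and 0.880% of Zfp42-low cells. Foxa1, a related factor of notochord and endoderm, was 26.9-fold higher. Of 6 measured definitive endoderm markers 2, Foxa1 among them, were at least 2-fold higher in Epi-CE and 1 at least 2-fold lower. Sox17 was at 2.54 CPM in Epi-CE, against 3.08 CPM in Zfp42-low cells. Ttr had no UMI in any group and Hnf4a none in Epi-CE or Zfp42-low cells. Among chromosome 8-low cells 10 and among chromosome 11-low cells 11 members were still at least 2-fold higher, with Foxa2 at log2 ratios of 3.60 and 3.69 against 4.44 over all cells. Shh was at log2 ratios of 3.50 and 4.26, against 6.90 over all cells.

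Of 13 primitive streak genes 2 were higher and 2 lower (median 0.07). Lhx1, a factor of the organizer and anterior streak, was at 10.4 CPM in Epi-CE, 0.113 CPM in Zfp42-high and 2.84 CPM in Zfp42-low cells and Snai1, which drives ingression through the streak, at 15.6 CPM in Epi-CE, 6.69 CPM in Zfp42-high and 6.60 CPM in Zfp42-low cells. Evx1, a factor of the posterior streak, was at 11.6 CPM in Epi-CE, against 31.6 CPM in Zfp42-low cells and Lefty2, a Nodal inhibitor, at 2.91 CPM in Epi-CE, against 14.1 CPM in Zfp42-low cells. Mixl1 and Eomes were within 2-fold, at log2 ratios of -0.40 and 0.07. Streak genes were 4 higher and 2 lower among chromosome 8-low cells, and 2 and 3 among chromosome 11-low cells.

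Naive pluripotency genes were where the Zfp42-high cells mattered most. Against all ES-NMP cells 15 of 18 measured genes were at least 2-fold lower in Epi-CE with a median of -6.20. Against Zfp42-low cells 9 of 14 were, with a median of -1.69. The 18 include Zfp42, which defines the split. The others missing from the 14 had fewer than 50 UMIs once the Zfp42-high cells were left out. The medians therefore cover different sets of genes and are not a like-for-like change. Some stayed far apart, subject to the free RNA that was not tested, with Dppa5a at 2.47 CPM in Epi-CE, 3279 CPM in Zfp42-high and 258 CPM in Zfp42-low cells and Tdh at 0.443 CPM in Epi-CE, 682 CPM in Zfp42-high and 49.5 CPM in Zfp42-low cells. Dppa3 had 3 UMIs in Epi-CE, against 9.33 CPM in Zfp42-low cells, a ratio of 182-fold lower (62.1 to 888). Klf4, Klf5 and Gbx2 were not lower in Epi-CE, with log2 ratios of 0.82, 0.78 and 0.06. With the Zfp42 line moved to 1 UMI the log2 ratio of Dppa5a changed from -6.71 to -5.62. Among chromosome 8-low cells 6 naive genes, and among chromosome 11-low cells 7, were measured and at least 2-fold lower.

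Core and primed factors differed less, with 2 of 18 higher and 3 lower (median -0.36). Pou5f1, which encodes OCT4, was at 426 CPM in Epi-CE, 696 CPM in Zfp42-high and 381 CPM in Zfp42-low cells. Nanog was at 14.5 CPM in Epi-CE, 148 CPM in Zfp42-high and 28.8 CPM in Zfp42-low cells, just inside the 2-fold line at a log2 ratio of -0.99. Fgf5, a marker of primed epiblast, was at 21.1 CPM in Epi-CE, 1.87 CPM in Zfp42-high and 6.94 CPM in Zfp42-low cells and Pou3f1, which encodes OCT6, at 36.2 CPM in Epi-CE, 3.46 CPM in Zfp42-high and 10.6 CPM in Zfp42-low cells. Their log2 ratios of 1.60 and 1.77 were 2.23 and 0.65 among chromosome 8-low cells. Dnmt3b, a de novo DNA methyltransferase, was at 46.6 CPM in Epi-CE, 192 CPM in Zfp42-high and 133 CPM in Zfp42-low cells.

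In the Nodal and activin pathway 1 of 14 genes was higher and 3 were lower (median 0.35). The counts were 3 higher and 4 lower among chromosome 8-low cells, and 1 and 5 among chromosome 11-low cells. Activin, a ligand of this pathway, was removed from Epi-CE cultures and never given to ES-NMP cultures. The ligand gene Nodal was at 21.4 CPM in Epi-CE, against 11.7 CPM in Zfp42-low cells and the receptor gene Acvr1b at 5.15 CPM in Epi-CE, against 2.43 CPM in Zfp42-low cells. The inhibitor Lefty1 was at 90.7 CPM in Epi-CE, 159.8 CPM in Zfp42-high and 247 CPM in Zfp42-low cells and the ligand gene Gdf3 at 2.61 CPM in Epi-CE, 128 CPM in Zfp42-high and 21.7 CPM in Zfp42-low cells. Fst, the activin antagonist follistatin, was at 636 CPM in Epi-CE, 52.8 CPM in Zfp42-high and 355 CPM in Zfp42-low cells; it passed 2-fold against all ES-NMP cells (2.27-fold higher) but not against Zfp42-low cells (1.79-fold higher).

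Both protocols added CHIR99021, and that of Epi-CE added FGF2 as well. Of 13 WNT targets 1 was higher and 2 lower (median -0.16): the feedback regulators Axin2 and Lef1 were within 2-fold at -0.88 and -0.16, Zfp703 was 2.15-fold higher and Notum, a secreted WNT inhibitor, 2.46-fold lower. Genes of FGF ligands and receptors were lower in 5 of 9 and higher in 1 (median -1.25), with Fgf3 at 2.80 CPM in Epi-CE, against 7.99 CPM in Zfp42-low cells and Fgf15 at 4.82 CPM in Epi-CE, against 14.6 CPM in Zfp42-low cells. Among chromosome 11-low cells 2 of them were lower. Of 14 FGF feedback genes 3 were higher and 2 lower (median -0.19). The higher ones were the phosphatase genes Dusp6, Dusp4 and Dusp5, which follow ERK activity, at 2.47-fold higher, 2.06-fold higher and 2.88-fold higher, while the ETS factor gene Etv4 was 2.08-fold lower and the sprouty genes Spry1, Spry2 and Spry4 were within 2-fold.

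BMP ligand and target genes were split 3 higher and 3 lower of 12. The ligand genes Bmp2 and Bmp7 were at 7.99 CPM in Epi-CE, against 2.15 CPM in Zfp42-low cells for Bmp2 and 52.3 CPM in Epi-CE, against 22.0 CPM in Zfp42-low cells for Bmp7, and the homeobox targets Msx1 and Msx2 were 12.7-fold lower and 4.28-fold lower. Id1 and Id3, direct BMP targets, were within 2-fold at 0.48 and 0.60. Among chromosome 8-low cells 0 of these genes were at least 2-fold higher. In the Notch list 3 of 12 were higher and 2 lower, led by the effector Hes1 at 183 CPM in Epi-CE, 28.4 CPM in Zfp42-high and 65.2 CPM in Zfp42-low cells. Retinoic acid genes were split 2 and 2 of 10: Rdh10, which makes retinal, was at 16.2 CPM in Epi-CE, against 5.12 CPM in Zfp42-low cells, and Stra6, a retinol transporter gene, at 3.58 CPM in Epi-CE, against 13.3 CPM in Zfp42-low cells.

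Glycolysis genes were higher in Epi-CE in 14 of 19 members and lower in 0 (median 1.25), and genes of the hypoxia response in 10 of 14, with 1 lower (median 1.41). Oxidative phosphorylation genes were nearly level, 1 of 20 higher and a median of -0.07. Pgk1, phosphoglycerate kinase (chromosome X, 106187100 to 106203699, plus strand, protein-coding), was at 187 CPM in Epi-CE, 53.1 CPM in Zfp42-high and 53.6 CPM in Zfp42-low cells, and Ldha, which turns pyruvate into lactate, at 3432 CPM in Epi-CE, 1238 CPM in Zfp42-high and 1442 CPM in Zfp42-low cells. The lactate exporter gene Slc16a3 was at 420.3 CPM in Epi-CE, 73.4 CPM in Zfp42-high and 105 CPM in Zfp42-low cells, and the glucose transporter gene Slc2a1 at 544 CPM in Epi-CE, 75.9 CPM in Zfp42-high and 253 CPM in Zfp42-low cells. Aldoc, an aldolase, had the largest ratio of the list, 6.93-fold higher (6.49 to 7.42). Pfkp and Pdk1 were set apart by the Zfp42-high cells, which held as much as Epi-CE or more: Pfkp was at 35.8 CPM in Epi-CE, 39.2 CPM in Zfp42-high and 8.24 CPM in Zfp42-low cells and Pdk1 at 78.1 CPM in Epi-CE, 110.5 CPM in Zfp42-high and 37.8 CPM in Zfp42-low cells. In the hypoxia list Ndrg1 was at 37.5 CPM in Epi-CE, 6.40 CPM in Zfp42-high and 2.52 CPM in Zfp42-low cells, the mitophagy receptor gene Bnip3 at 232 CPM in Epi-CE, 68.8 CPM in Zfp42-high and 45.8 CPM in Zfp42-low cells, the collagen prolyl hydroxylase gene P4ha1 at 91.0 CPM in Epi-CE, 25.2 CPM in Zfp42-high and 15.3 CPM in Zfp42-low cells and Egln3, an oxygen-sensing hydroxylase, at 31.6 CPM in Epi-CE, 3.85 CPM in Zfp42-high and 5.77 CPM in Zfp42-low cells. Bnip3 was detected in 74.4% of Epi-CE, 39.0% of Zfp42-high and 26.0% of Zfp42-low cells. Adm, another hypoxia-responsive gene, went the other way at 1.09 CPM in Epi-CE, against 2.21 CPM in Zfp42-low cells. Among chromosome 8-low cells 8 glycolysis and 9 hypoxia genes were still at least 2-fold higher, and among chromosome 11-low cells 13 and 10. Per the labels Epi-CE cells were plated more densely than ES-NMP cells, and the part of cell density was not tested.

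Many genes of these lists share a short sequence near their start. The letters ACGTG, which fall within the core that hypoxia-inducible factors bind, were looked for on both strands in RefSeq windows of 300 bases, 250 before to 50 after each start (build GRCm38.p6). ACGTG lay in the windows of 12 of 18 glycolysis genes (66.7%) and 10 of 12 hypoxia genes (83.3%), against 29.5% of the 9955 measured genes with a window and 21.8% of all genes with one. Of the 984 such genes that were measured and at least 2-fold higher in Epi-CE, 239 (24.3%) held it. By window the share was 50% in the glycolysis and 64.7% in the hypoxia list, against 19.6% of all windows. A match is a description of the letters and not a bound site. The windows of 3 members with large ratios are shown, since their matches lie within 150 bases of the start, 5′ to 3′ on the gene's strand, with the matches in capitals (CACGT is ACGTG on the other strand, and in Bnip3 both overlap). Pgk1 is at chrX:106186850-106187149 (+), Bnip3 at chr7:138909457-138909756 (-) and P4ha1 at chr10:59323046-59323345 (+).
Pgk1: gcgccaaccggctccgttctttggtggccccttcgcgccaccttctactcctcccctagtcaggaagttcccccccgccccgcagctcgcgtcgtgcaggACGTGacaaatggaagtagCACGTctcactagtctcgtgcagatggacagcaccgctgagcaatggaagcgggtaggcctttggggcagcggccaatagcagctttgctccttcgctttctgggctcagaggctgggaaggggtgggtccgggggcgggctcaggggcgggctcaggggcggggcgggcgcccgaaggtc
Bnip3: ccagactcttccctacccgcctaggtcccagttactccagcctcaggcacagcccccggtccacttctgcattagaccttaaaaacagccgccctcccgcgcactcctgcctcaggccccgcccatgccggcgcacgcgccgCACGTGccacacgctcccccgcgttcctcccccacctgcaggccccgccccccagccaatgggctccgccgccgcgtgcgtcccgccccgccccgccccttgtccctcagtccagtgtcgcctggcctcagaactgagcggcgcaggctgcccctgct
P4ha1: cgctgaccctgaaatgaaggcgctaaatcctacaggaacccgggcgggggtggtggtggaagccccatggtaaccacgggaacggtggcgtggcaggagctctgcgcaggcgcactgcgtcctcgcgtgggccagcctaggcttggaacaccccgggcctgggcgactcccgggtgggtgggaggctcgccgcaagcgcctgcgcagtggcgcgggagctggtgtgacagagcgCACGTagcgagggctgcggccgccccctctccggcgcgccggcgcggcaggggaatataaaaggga

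Interferon and antigen presentation genes were higher in Epi-CE in 11 of 19 members and lower in 0 (median 1.15). Gbp2 (chromosome 3, 142620602 to 142638008, plus strand, protein-coding), an interferon-inducible GTPase, was at 65.0 CPM in Epi-CE, 0.170 CPM in Zfp42-high and 3.36 CPM in Zfp42-low cells and was 19.4-fold higher (16.7 to 22.6). The neighbouring Gbp2b was 17.9-fold higher, and because the genes are close in sequence their counts may share reads. Isg15, a ubiquitin-like modifier induced by interferon, was at 37.5 CPM in Epi-CE, 0.283 CPM in Zfp42-high and 2.06 CPM in Zfp42-low cells, the transcription factor gene Irf1 at 25.9 CPM in Epi-CE, against 6.57 CPM in Zfp42-low cells, and Psmb8, an immunoproteasome subunit gene, at 31.1 CPM in Epi-CE, against 7.14 CPM in Zfp42-low cells. Ifit1 was at 1.91 CPM in Epi-CE, against 1 UMI in Zfp42-low cells. The surface antigen gene H2-K1 was at 105 CPM in Epi-CE, against 49.4 CPM in Zfp42-low cells and B2m at 195 CPM in Epi-CE, against 102 CPM in Zfp42-low cells. Ifitm1, Ifitm2 and Ifitm3 were all within 2-fold, and Ifitm1 was highest in Zfp42-high cells at 469 CPM. In Epi-CE the Gbp2 signal sat in cells with T: it was found in 31.2% of cells with a T UMI and 5.56% of cells without one. Among chromosome 8-low cells Gbp2 was at a log2 ratio of 2.18 and Isg15 at 1.99, against 4.28 and 4.19 over all cells, and Ifit1 at 3.31, against 6.69.

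The interferon-stimulated response element is read by STAT and IRF factors, and the letters GAAANNGAAA, on either strand, lay in the RefSeq windows of 10 of 18 genes of this list (55.6%), against 3.45% of measured genes, 6.30% of those at least 2-fold higher in Epi-CE and 3.99% of all genes with a window. By window the share was 47.6% in the list and 3.44% over all windows. The Gbp2 window, chr3:142620413-142620712 (+), holds 1 match, shown in capitals as it reads on the opposite strand.
Gbp2: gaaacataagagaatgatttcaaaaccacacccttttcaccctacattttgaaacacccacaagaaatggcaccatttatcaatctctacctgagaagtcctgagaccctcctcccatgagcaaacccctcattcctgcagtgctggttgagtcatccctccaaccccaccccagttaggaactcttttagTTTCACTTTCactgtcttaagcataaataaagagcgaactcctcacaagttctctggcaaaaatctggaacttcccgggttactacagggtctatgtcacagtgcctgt

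Immediate early genes, which respond within minutes to growth factors and to cell dissociation, were higher in 11 of 15 members and lower in 0 (median 1.31). The counts were 7 higher and 0 lower among chromosome 8-low cells, and 8 higher and 1 lower among chromosome 11-low cells. Fos was at 310.3 CPM in Epi-CE, 15.5 CPM in Zfp42-high and 86.4 CPM in Zfp42-low cells, Jun at 189 CPM in Epi-CE, 12.1 CPM in Zfp42-high and 52.4 CPM in Zfp42-low cells and Junb at 118 CPM in Epi-CE, 11.7 CPM in Zfp42-high and 28.2 CPM in Zfp42-low cells. Egr1 and Ier2, members of the same class, were within 2-fold at log2 ratios of 0.37 and -0.08, and the heat shock gene Hspa1a was at 2.22 CPM in Epi-CE, against 2.75 CPM in Zfp42-low cells. How the cells were dissociated is not stated for these libraries in the labels used here. The amino acid stress response had 3 of 17 higher and 0 lower (median 0.30), with Cth, cystathionine gamma-lyase, at 58.2 CPM in Epi-CE, 41.1 CPM in Zfp42-high and 15.8 CPM in Zfp42-low cells and Asns, asparagine synthetase, at 549 CPM in Epi-CE, 571 CPM in Zfp42-high and 295 CPM in Zfp42-low cells. Of 11 p53 and apoptosis genes none was higher and 1, Pmaip1, which encodes the cell death protein NOXA, was lower, at 0.409 CPM in Epi-CE, 8.05 CPM in Zfp42-high and 8.77 CPM in Zfp42-low cells.

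Genes of simple epithelium and of the annexin and S100 families were higher in 12 of 14 members and lower in 1 (median 1.37). Anxa2 (chromosome 9, 69453620 to 69491795, plus strand, protein-coding), a calcium-dependent membrane binding protein gene, was at 229 CPM in Epi-CE, 9.63 CPM in Zfp42-high and 19.5 CPM in Zfp42-low cells and was detected in 67.4% of Epi-CE, 3.29% of Zfp42-high and 6.24% of Zfp42-low cells. S100a10, the partner of annexin A2, was at 892 CPM in Epi-CE, 45.7 CPM in Zfp42-high and 142 CPM in Zfp42-low cells and S100a11 at 782 CPM in Epi-CE, 56.3 CPM in Zfp42-high and 103 CPM in Zfp42-low cells. The keratin genes Krt19, Krt18 and Krt8 were 7.34-fold higher, 2.53-fold higher and 2.00-fold higher; Krt8 and Krt18 have processed copies elsewhere in the genome, which makes their counts uncertain. Krt19 was concentrated in part of Epi-CE, 42.2% of cells, and 31.2% of Epi-CE cells held both Krt19 and Anxa2. Anxa1 was the exception at 2.22 CPM in Epi-CE, against 10.1 CPM in Zfp42-low cells. Among chromosome 8-low cells 6 members were at least 2-fold higher, and there Krt18 stood at a log2 ratio of 0.01 and Anxa2 at 1.92, against 1.34 and 3.55 over all cells. Vim, vimentin, was at 986 CPM in Epi-CE, 48.6 CPM in Zfp42-high and 231 CPM in Zfp42-low cells, in an epithelial and mesenchymal list with 3 of 15 higher and 0 lower in which Cdh1 and Epcam were within 2-fold. Extracellular matrix and integrin genes were split 3 and 3 of 18, with Sparc at 299.9 CPM in Epi-CE, 47.7 CPM in Zfp42-high and 113 CPM in Zfp42-low cells. Col4a1 and Col4a2, basement membrane collagens, were 2.21-fold lower and 2.65-fold lower, and Col4a2 lies on chromosome 8. Matrix and integrin genes were 0 higher and 6 lower among chromosome 8-low cells, and 4 and 3 among chromosome 11-low cells. The epithelial and mesenchymal list was 1 higher and 2 lower among chromosome 8-low cells, and 4 and 1 among chromosome 11-low cells.

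Imprinted genes, which are expressed from 1 parental copy, differed gene by gene: 4 of 18 were higher and 7 lower (median -0.38). Nnat, neuronatin, was at 0.153 CPM in Epi-CE, 6.12 CPM in Zfp42-high and 28.0 CPM in Zfp42-low cells, Plagl1 at 0.0852 CPM in Epi-CE, 1.47 CPM in Zfp42-high and 4.36 CPM in Zfp42-low cells and Mest at 15.5 CPM in Epi-CE, 66.8 CPM in Zfp42-high and 127 CPM in Zfp42-low cells. Peg3 was at 151 CPM in Epi-CE, 14.6 CPM in Zfp42-high and 47.6 CPM in Zfp42-low cells, the non-coding Meg3 at 820.1 CPM in Epi-CE, 244 CPM in Zfp42-high and 323 CPM in Zfp42-low cells, and Cdkn1c, a cell cycle inhibitor gene, at 247 CPM in Epi-CE, 45.2 CPM in Zfp42-high and 114 CPM in Zfp42-low cells. H19, a non-coding RNA gene, had 2 UMIs in Epi-CE and was at 1.24 CPM in Zfp42-low cells. Of the imprinted genes only 1 was still at least 2-fold higher among chromosome 8-low cells, and 7 were lower. The counts were 3 higher and 5 lower among chromosome 11-low cells. Of 13 DNA methylation genes 2, Dnmt3b and Dnmt3l, were lower and none higher, and Dnmt3a and Tet1 were level at log2 ratios of -0.00 and -0.03. Polycomb genes had 2 of 15 higher and 1 lower.

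Cell cycle genes were close. None of 20 G2 and M phase genes passed 2-fold (median -0.07). Of 20 S phase genes 2 were lower (median -0.43): Mcm5, a subunit of the replicative helicase, was at 128 CPM in Epi-CE, against 263 CPM in Zfp42-low cells and Ccne1, cyclin E1, at 53.9 CPM in Epi-CE, against 111 CPM in Zfp42-low cells. All 20 S phase genes had log2 ratios below 0, from -1.05 to -0.06. Of 16 purine salvage and synthesis genes Hprt alone passed 2-fold; Aprt, the salvage enzyme that uses adenine, was at 288 CPM in Epi-CE, against 494 CPM in Zfp42-low cells, and the synthesis genes Gmps and Paics were at log2 ratios of 0.45 and 0.29. Xist and Tsix, of X inactivation, were at 0.324 and 0.852 CPM in Epi-CE, 4.42 and 10.0 CPM in Zfp42-high and 0.742 and 2.13 CPM in Zfp42-low cells. Of 9 markers of 2-cell-like cells only Eif1a had enough UMIs to be measured, at a log2 ratio of -0.42.

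**Figure D5:**
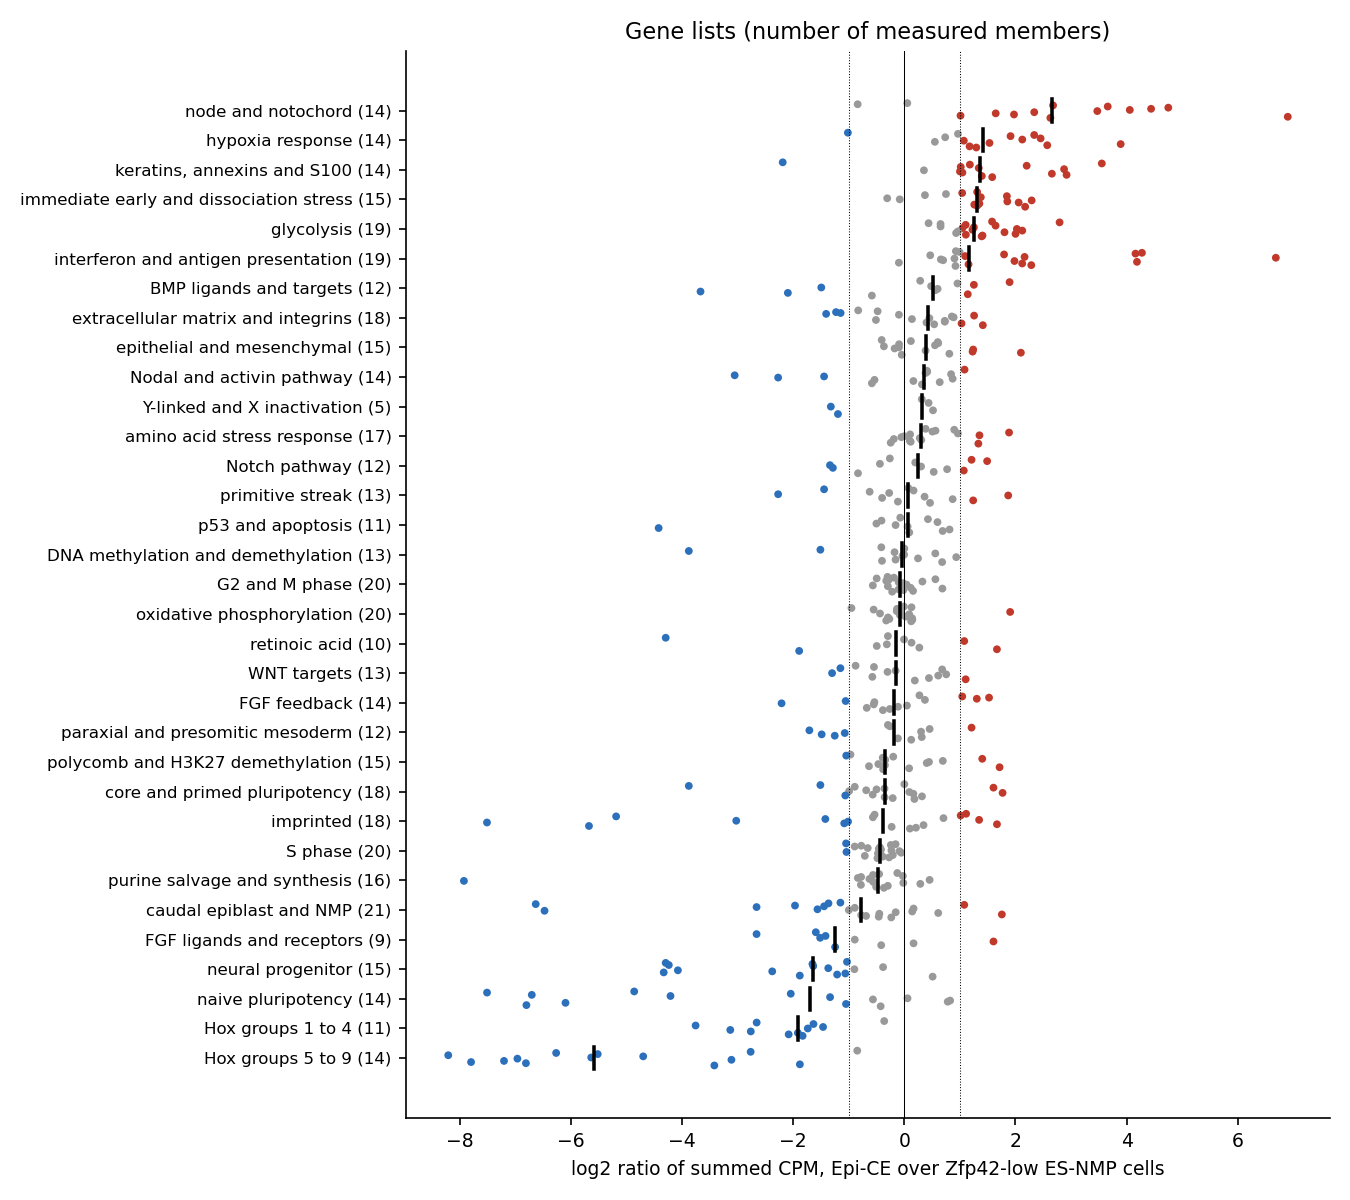
Log2 ratio of summed CPM, Epi-CE over Zfp42-low ES-NMP cells, for each measured member of the lists with 5 or more measured members, ordered by the list's median (black bar); red points are at least 2-fold higher, blue points at least 2-fold lower, dotted lines mark 2-fold. Node and notochord genes lie furthest right with a median of 2.65, Hox genes of groups 5 to 9 furthest left with a median of -5.58, and oxidative phosphorylation and G2 and M phase genes lie around 0.

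Among the genes outside these lists that stood furthest apart, Clu (chromosome 14, 65968483 to 65981547, plus strand, protein-coding), which encodes the chaperone clusterin, was at 216 CPM in Epi-CE, 8.50 CPM in Zfp42-high and 10.1 CPM in Zfp42-low cells and had the highest ratio of all ranked genes, 21.3-fold higher (19.6 to 23.3). Aplnr, the apelin receptor gene, was at 52.6 CPM in Epi-CE, 0.113 CPM in Zfp42-high and 4.90 CPM in Zfp42-low cells, and 21.7% of Epi-CE cells held both T and Aplnr, against 1.93% of Zfp42-low cells. Sprr2a3, Tmem176a, Pgm2 and Sycp3 were 13.7-fold higher, 10.1-fold higher, 7.47-fold higher and 7.42-fold higher, with the reservation that Sprr2a3 has close copies in its family. On the lower side Trh, the thyrotropin-releasing hormone gene, was at 2.90 CPM in Epi-CE, 355 CPM in Zfp42-high and 94.6 CPM in Zfp42-low cells, and its log2 ratio of -5.03 over all cells was -4.16 among chromosome 8-low and -8.71 among chromosome 11-low cells. Fgfbp3, an FGF binding protein gene, was at 19.2 CPM in Epi-CE, 6.35 CPM in Zfp42-high and 89.0 CPM in Zfp42-low cells and Pla2g1b, a secreted phospholipase gene, at 10.9 CPM in Epi-CE, 201 CPM in Zfp42-high and 56.2 CPM in Zfp42-low cells. Hoxaas3 was 41.1-fold lower, but it is an antisense gene, and none of the sources used here says whether reads were counted by strand. Acta2, smooth muscle actin, was at 12.7 CPM in Epi-CE, 3.46 CPM in Zfp42-high and 63.8 CPM in Zfp42-low cells and yet was detected in 3.86% of Epi-CE, 2.47% of Zfp42-high and 3.81% of Zfp42-low cells, so that its UMIs came from few cells. Its log2 ratio was -2.33 over all cells and -1.21 once the 10% of cells with the fewest and the 10% with the most UMIs were left out. In Zfp42-low cells Acta2 was at 141 CPM in the chromosome 11-low and 28.0 CPM in the chromosome 11-high class.

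After thinning, 4 genes were detected in a share of cells at least 50 points higher in Epi-CE than in Zfp42-low cells (0.0302% of 13250) and 1 in a share at least 50 points lower (0.00755%). Anxa2, S100a11, S100a10 and Clu were the 4 and Hprt was the 1. Slc16a3 was detected in 91.0% of Epi-CE, 30.9% of Zfp42-high and 44.6% of Zfp42-low cells, Tpd52l1 in 71.4% of Epi-CE, 19.8% of Zfp42-high and 25.6% of Zfp42-low cells and Sparc in 80.9% of Epi-CE, 26.3% of Zfp42-high and 36.9% of Zfp42-low cells. Cd24a, a surface glycoprotein gene, was detected in 41.5% of Epi-CE, 65.4% of Zfp42-high and 84.5% of Zfp42-low cells, and Mat2a, methionine adenosyltransferase, in 51.3% of Epi-CE, 89.0% of Zfp42-high and 88.5% of Zfp42-low cells. Srm, spermidine synthase, was at 126 CPM in Epi-CE, 433 CPM in Zfp42-high and 313 CPM in Zfp42-low cells. Nip7, Emc8 and Cirh1a were also among the 10 largest share differences on the lower side. Nip7 and Emc8 lie on chromosome 8, while Cirh1a was not placed because its symbol was not matched. The log2 ratios of Nip7, Emc8 and Cirh1a were -1.28, -1.30 and -1.34 over all cells. They were -0.72, -0.65 and -0.87 among chromosome 8-low cells.

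Markers of other cell types were low or did not form whole sets. The summed level of 10 fibroblast or feeder markers was 24.4 CPM in Epi-CE, 8.78 CPM in Zfp42-high and 81.9 CPM in Zfp42-low cells, of which Acta2 made up 12.7 CPM in Epi-CE, 3.46 CPM in Zfp42-high and 63.8 CPM in Zfp42-low cells, with Col3a1 at 0.136 CPM in Epi-CE, against 0.371 CPM in Zfp42-low cells. The sum of 11 blood and endothelial markers was 48.1 CPM in Epi-CE, 49.2 CPM in Zfp42-high and 22.6 CPM in Zfp42-low cells, most of it Lmo2 in Epi-CE at 44.5 CPM and Pecam1 in Zfp42-high cells at 38.8 CPM, and the globin genes Hba-x and Hbb-bh1 had no UMI in any group. Neural crest markers summed to 10.8 CPM in Epi-CE, 16.3 CPM in Zfp42-high and 6.96 CPM in Zfp42-low cells, and markers of lateral and cardiac mesoderm to 23.8 CPM in Epi-CE, 28.2 CPM in Zfp42-high and 13.7 CPM in Zfp42-low cells. The trophoblast sum, 139 CPM in Epi-CE, 102 CPM in Zfp42-high and 334 CPM in Zfp42-low cells, held Cdx2, which caudal cells express, at 122 CPM in Epi-CE, 31.8 CPM in Zfp42-high and 314 CPM in Zfp42-low cells, and Tpbpa had no UMI in any group. Germ cell markers summed to 7.64 CPM in Epi-CE, 149.7 CPM in Zfp42-high and 23.7 CPM in Zfp42-low cells, and in Zfp42-high cells they went with the naive genes, with Tfap2c at 61.0, Dnd1 at 38.1 and Nanos3 at 29.6 CPM. The smooth muscle-like sum was 1091 CPM in Epi-CE, 215 CPM in Zfp42-high and 546 CPM in Zfp42-low cells; in Epi-CE it was mostly Tpm1 at 919.7 CPM, while Acta2, Tagln and Cnn1 were higher in Zfp42-low cells. Definitive endoderm markers summed to 86.4 CPM in Epi-CE, 60.9 CPM in Zfp42-high and 58.1 CPM in Zfp42-low cells, most of it Cldn6.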

How the data were processed

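Single-cell RNA of 4 libraries, 1 per group, was made with the 10x Chromium system and sequenced on a HiSeq 4000, per the labels. The submitters' processing notes name Cell Ranger 1.3.1, Seurat 2.0 and build mm10; what the TRUE and FALSE marks mean, the strand setting and any removal of doublets are not stated there or in the labels. The deposited matrix holds UMI counts of 27998 genes, not normalized, as the values show. Of the barcodes, 80 of 2466 in Epi-CE (3.24%) and 172 of 3288 in ES-NMP (5.23%) were marked FALSE and left out. No doublet caller was run; the 5% of cells with the most UMIs were left out as an alternative.

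From the counts, summed CPM, ratios with exact conditional-binomial intervals, levels with Poisson intervals and shares with Clopper-Pearson intervals were computed at 95%, in Python 3.11.15 with numpy 2.4.6, scipy 1.17.1 and pandas 2.3.3. TMM factors came from edgeR 4.0.16 in R 4.3.3. A gene was measured with 50 or more UMIs over both groups, and counted as higher or lower past 2-fold. Zfp42 was left out of counts that its threshold of 3 UMIs touches. A level of 0 was set against a floor of 3 UMIs. UMIs correct for amplification, but intervals cover counting error only, and no p-value was computed. The functions were tested on simulated data.

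The comparison, its members and all 35 gene lists (523 genes) and 12 marker lists were chosen with earlier results of these data known. Genes were named by rule: the 12 highest and 12 lowest ratios and the 10 highest and 10 lowest share differences, among genes with 200 or more UMIs and 50 or more CPM in the higher group without ribosomal protein, mitochondrial and predicted genes; up to 4 genes of each list; the 10 highest and 10 lowest of the Zfp42 split; and T, Sox2, Nkx1-2, Cdx2 and Hprt. Further list members were named after their values were seen. Some genes that these rules pick are not reported here. Promoter windows were matched by symbol to RefSeq (GRCm38.p6), and gene positions came from GENCODE M21 on the same build.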

Additional observations from a re-analysis of the deposited data

How the results depend on the processing

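No paired analysis was possible because each group was 1 library. Of 131 named genes at least 2-fold apart, 124 stayed so on the same side under all 11 alternative scalings, weights, cell filters and Zfp42 thresholds; Cbx2, Etv4, Ccne1, Cyp26a1, Tsix, Xist and Zfp703 did not. Counts of genes moved by over 1.5 times mainly with the filter on low counts, where fewer or more genes are counted by construction. Against Zfp42-low cells, Epi-CE had 1585 lower genes at 10 or more UMIs, 895 higher and 486 lower at 200 or more, and 2277 higher and 2055 lower with no minimum. Against all ES-NMP cells it had 1880 lower genes at 10 or more UMIs, 647 lower at 200 or more, 2579 higher and 2213 lower with no minimum, and 707 lower among chromosome 8-low cells. Zfp42-high cells had 1392 higher genes at 10 or more UMIs, 540 higher and 1210 lower at 200 or more, 2162 higher with no minimum, 989 lower with the Zfp42 threshold at 1 UMI, and 395 higher and 980 lower among chromosome 8-low cells. Scaling moved the Zfp42 split from 30.2% of calls on the higher side to 37.1% with TMM (1024 higher, 1738 lower) and 37.5% with size factors.

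The share of Zfp42-high cells was 39.3%, 27.9% and 20.1% at thresholds of 1, 2 and 5 UMIs, 17.2% with 3 UMIs after thinning and 40.9% among chromosome 11-low cells. Unthinned, 7 genes were 50 points higher and 2 lower in share; at 4000 UMIs 2 were higher. Cells with both T and Sox2 made up 31.1% of Epi-CE, 18.5% of Zfp42-high and 19.3% of Zfp42-low cells unthinned, and 7.92% of Epi-CE, 3.02% of Zfp42-high and 2.18% of Zfp42-low cells at 4000 UMIs. The alternatives on chromosomes 8 and 11 were chosen after seeing the data. Without the genes placed on chromosomes 8 and 11, 1240 genes were higher and 708 lower in Epi-CE than in Zfp42-low cells. The counts were 1100 and 606 among chromosome 8-low and 1224 and 648 among chromosome 11-low cells. Of named genes, Xist was reversed at a log2 ratio of 0.75 among chromosome 8-low cells and Col1a2 at 0.95 among chromosome 11-low cells; the cause was not tested. Depth limits genes under 50 UMIs, and 1 library per group leaves the spread between cultures unknown.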
